A study of Mus musculus with 96 samples.

Results

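A set of 10 genes that mark the macrophages living in the healthy mouse heart was followed in 4 cell types after myocardial infarction. These were Folr2, Lyve1, Timd4, Cd163, Mrc1, F13a1, Cbr2, Pf4, Stab1 and Retnla, taken by name, and they are 10 of the 50944 genes listed in every quantification file. Total RNA-seq was made from hematopoietic cells (HC), cardiomyocytes (CM), endothelial cells (EC) and fibroblasts (FB), and the labels name male C57Bl/6J mice of 12 to 14 weeks and no transgene or drug. Day 0 mice were not operated. On Day 1, Day 3, Day 7, Day 14 and Day 28 the mice had lived that long with the left anterior descending artery (LAD), which supplies the anterior wall, permanently tied. The 24 groups held 4 libraries each, 96 in all, and n = 4 for each group value below. No sham-operated group was analysed here, so infarction and surgery cannot be told apart. Each library was made from RNA pooled over several mice, and the replicates were described by the study as both biological and technical. P-values therefore speak only of how these pools varied, and that variation can be technical. HC were bound by beads against CD45, a surface protein of leukocytes in general, so they hold macrophages together with monocytes, neutrophils and lymphocytes. EC were bound by beads against CD144, FB were cells that stuck to a plain dish, and CM were the cells that sank in a slow spin.

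Resident cardiac macrophages settle in the heart early in life and renew themselves there, while blood monocytes enter in large numbers after infarction and can become macrophages that lack several resident markers. Macrophages of the resident kind clear debris and dying cells, and they carry receptors for scavenging and for recognition of dying cells. Most of the genes below are known in other cells too: Lyve1 in lymphatic endothelium, Stab1 in endothelium, Pf4 in platelets, and F13a1 in platelets and monocytes.

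The files gave HC 16214419 to 40395291 estimated reads per library, CM 13503024 to 55758471, EC 12445124 to 33868990 and FB 2664338 to 36545715. Levels are given in CPM, the reads of a gene per 1000000 reads of the library after TMM scaling (a correction for differences in composition) over all 96 libraries. The 4 HC markers Itgax, Itgal, Cd53 and Ptprc summed to 562 to 694 CPM in HC at Day 0 and to 0.672 to 2.25 CPM in the Day 0 libraries of the other cell types. At Day 0 HC also held 1030 to 1650 CPM of CM markers, which fell to 274 to 366 CPM at Day 1, and 261 to 393 CPM of EC markers, which fell to 85.2 to 156 CPM. Library preparation batch coincided with cell type, so these cannot be told apart in any comparison between cell types. HC at Day 1 and Day 7 were deposited as transcript values and HC at the other days as gene values, so the kind of file and the day cannot be told apart there. The listed length of a gene, a mean over its transcripts in use, had an HC median of 3165 bases in transcript files and 2949.8 in gene files for F13a1, and of 418 and 380 bases for Stab1. Retnla was counted differently in them, as given with its values. An earlier analysis of these data found a shared set of abundant transcripts in 8 libraries, here called the doubtful libraries. They are HC Day 28 replicates 2 and 4, replicates 2 and 3 of FB Day 3, replicate 4 of FB Day 28, replicates 1 and 2 of EC Day 0, and replicate 3 of EC Day 28. The study itself removed outliers of its total RNA-seq from FB Day 3 and HC Day 28 without naming the replicates. HC Day 3 replicate 4, which stood apart from the others of its day over all genes, is not one of the 8. All libraries were kept here unless a result says otherwise.

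The promoters of 5 members are shown because these genes passed the test in HC on Day 1 and the promoter table held them, Timd4, Retnla, Folr2 and Cbr2 downward and Pf4 upward. Each runs from 250 bases before the annotated transcription start to 50 bases after it, 5′ to 3′ on the strand of the gene, from RefSeq on GRCm38.p6. The Timd4 promoter lies at chr11:46810549-46810848 on the plus strand, that of Retnla at chr16:48842359-48842658 on the plus strand and that of Pf4 at chr5:90772185-90772484 on the plus strand. On the minus strand, the Folr2 promoter lies at chr7:101845282-101845581 and that of Cbr2 at chr11:120731972-120732271. Capitals mark 4 motifs found on either strand: GAGGAA, the core of PU.1 sites, TGCTGA, part of MAF sites, TTCNNNNGAA, the outline of STAT sites, and the TATA box letters TATAAA.
Timd4: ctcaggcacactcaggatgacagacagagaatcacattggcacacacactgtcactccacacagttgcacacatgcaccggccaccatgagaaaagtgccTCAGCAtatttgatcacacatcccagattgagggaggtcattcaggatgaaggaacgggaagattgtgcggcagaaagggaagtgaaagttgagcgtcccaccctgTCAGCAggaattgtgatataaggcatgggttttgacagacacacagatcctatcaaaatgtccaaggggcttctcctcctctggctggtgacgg
Retnla: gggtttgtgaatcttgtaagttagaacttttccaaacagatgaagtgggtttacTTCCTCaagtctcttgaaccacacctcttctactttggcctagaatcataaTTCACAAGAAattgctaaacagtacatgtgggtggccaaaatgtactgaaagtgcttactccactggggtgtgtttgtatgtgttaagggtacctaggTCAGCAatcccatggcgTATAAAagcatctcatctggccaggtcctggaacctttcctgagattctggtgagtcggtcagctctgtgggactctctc
Folr2: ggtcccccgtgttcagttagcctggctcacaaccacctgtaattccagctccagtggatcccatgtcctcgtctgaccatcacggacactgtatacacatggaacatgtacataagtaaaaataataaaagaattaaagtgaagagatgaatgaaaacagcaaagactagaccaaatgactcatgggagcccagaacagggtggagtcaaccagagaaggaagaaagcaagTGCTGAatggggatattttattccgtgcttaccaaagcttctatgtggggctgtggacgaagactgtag
Cbr2: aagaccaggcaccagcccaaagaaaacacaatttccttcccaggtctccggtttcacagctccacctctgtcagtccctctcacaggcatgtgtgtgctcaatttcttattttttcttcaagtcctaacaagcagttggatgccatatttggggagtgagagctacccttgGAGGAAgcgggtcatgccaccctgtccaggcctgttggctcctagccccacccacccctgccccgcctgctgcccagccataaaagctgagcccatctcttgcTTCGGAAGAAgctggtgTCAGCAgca
Pf4: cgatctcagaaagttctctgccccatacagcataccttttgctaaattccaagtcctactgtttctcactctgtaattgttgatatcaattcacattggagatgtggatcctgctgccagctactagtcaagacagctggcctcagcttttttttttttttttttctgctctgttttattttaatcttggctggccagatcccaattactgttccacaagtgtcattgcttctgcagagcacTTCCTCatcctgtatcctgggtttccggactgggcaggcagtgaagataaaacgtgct
PU.1 and MAF proteins are transcription factors of macrophages, and STAT proteins act in cytokine signalling. TGCTGA stood in 4 of these 5 promoters, at bases -150 and -44 from the start in Timd4, -47 in Retnla, -19 in Folr2 and 42 in Cbr2, and it was not found in the window of Pf4. These 5 were chosen by their Day 1 calls, and the 4 of 5 depends on that choice. Of the members not printed, Stab1 held TGCTGA at -43, and the windows of Mrc1, Cd163 and F13a1 did not hold it. GAGGAA stood at -196 in Retnla, -79 in Cbr2 and -8 in Pf4. The STAT outline stood at -145 in Retnla and 25 in Cbr2, and TATAAA at -30 in Retnla. Among all 32851 promoters of this table, 19.5% held TGCTGA, 28.3% GAGGAA, 6.95% the STAT outline and 13.6% TATAAA. A match of letters is a description and not a binding site. The table held 9 of the 10 members, all but Lyve1. Folr2 had a further promoter there, and 97.5% of its HC reads at Day 1 came from the transcript that starts near the promoter printed here. The start used for Cbr2 was base 120732021, but the transcript with 99.3% of its HC reads at Day 1 starts upstream, at 120732114. The matches in Cbr2 all lie after that start. The start used for Retnla was base 48842609, and its transcript in the files starts upstream, at 48842551. The Retnla matches at -47 and -30 lie after that start.

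In the unoperated heart the 10 members were read mostly in HC. Each was higher in HC than in CM, EC and FB at Day 0 (edgeR quasi-likelihood test with Benjamini-Hochberg adjustment over all genes, called at an adjusted p under 0.05). The same test called 41% of all genes higher in HC than in CM, 26.4% higher than in EC and 35.5% higher than in FB. The members were chosen as macrophage genes, so this direction was set by the choice. Folr2, Timd4 and Retnla, for example, had at most 6 reads in any CM, EC or FB library of Day 0. Such members entered the fit through HC, and their calls add nothing to the levels. Mean levels in HC ran from 38.8 ± 2.98 CPM (SD, here and for all levels) for Timd4 to 1150 ± 74.3 CPM for F13a1. In the other cell types the highest means at Day 0 were those of Stab1 (53.4 ± 12.9 CPM) and Lyve1 (12.8 ± 1.04 CPM) in EC and of Stab1 in FB (8.44 ± 1.81 CPM).

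Stab1 and Lyve1 were thus the members least separated between HC and EC. Stab1, at chr14:31139013-31168641 (mm10) on the minus strand, encodes a scavenger receptor of macrophages and sinusoidal endothelium, and it was higher in HC by a log2 fold change of 3.70 ± 0.26 (SE, here and for all log2 fold changes). Lyve1, at chr7:110850607-110863239 on the minus strand, encodes a receptor for hyaluronan, and it was 28.1-fold higher in HC (4.81 ± 0.18). The other 8 members had means of 0.0403 to 2.15 CPM in EC. EC in turn exceeded CM for Stab1 and Lyve1, by 8.16-fold for Stab1 (3.03 ± 0.27) and 6.72-fold for Lyve1 (2.75 ± 0.21), where 72.7% of all genes differed in either direction. F13a1 was lower in EC than in CM (-1.14 ± 0.23, adjusted p = 0.00025, but a log2 fold change of 0.08 by limma on log2(TPM + 1)). FB was lower than EC for Stab1 (-2.68 ± 0.25), Lyve1 (-2.32 ± 0.17) and Mrc1 (-2.25 ± 0.22, but -0.04 by limma), where 63.7% of all genes differed in either direction. Against CM, Mrc1 (-2.37 ± 0.26) and F13a1 (-1.67 ± 0.23) were lower in FB, where 70.4% of all genes differed in either direction, but both turned by limma (0.03 and 0.09). The mean TPM of Mrc1 and F13a1 was 0.017 to 0.0861 in CM, EC and FB, so their log2(TPM + 1) values lay near 0. Members with only a few reads in CM, EC and FB entered this fit through HC and are not compared here between those cell types. Folr2, with at most 6 reads in any CM or EC library of Day 0, is one of them.

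Levels of different genes were compared per length, in TPM. Among the HC libraries of Day 0 the order was Pf4 (314 ± 78.2 TPM), Cbr2 (232 ± 69.6), F13a1 (162 ± 34.9), Folr2 (116 ± 36.5), Retnla (115 ± 11.6), Mrc1 (77.9 ± 14.6), Lyve1 (52.3 ± 12.5), Cd163 (36.9 ± 7.63) and Timd4 (7.69 ± 1.73). Neighbours in this order differed by less than the sum of their SDs, apart from Retnla and Mrc1, and Cd163 and Timd4. Stab1 is left out of the order because a transcript of 242 bases held 13.5% of its HC reads at Day 1 but 94.6% of its TPM.

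After infarction the members did not move as a block in HC. At Day 1, 5 of 10 were lower than at Day 0 (Folr2, Lyve1, Timd4, Cbr2 and Retnla), where 23.9% of all 18895 genes tested were lower. Pf4 was the 1 member that was higher, where 18% of all genes were. At Day 3, 6 were lower (Lyve1, Timd4, Cd163, F13a1, Cbr2 and Retnla; 23.1% of all genes) and Pf4 was higher (23.3%). At Day 7, 4 were lower (Lyve1, Timd4, F13a1 and Retnla; 14%) and none higher (14.1%). None passed at Day 14, where 12.9% of all genes did, or at Day 28 (21.8%). These counts take Retnla without an extra entry described with it, which adds a call at Day 14. The median log2 fold change of the 10 was -0.61 at Day 1, -0.71 at Day 3, -0.49 at Day 7, -0.31 at Day 14 and 0.06 at Day 28, against -0.10, -0.02, 0.03, -0.01 and 0.05 over all genes. Of these 17 calls, 6 were also made by limma on log2(TPM + 1): Timd4 and Retnla at Day 1, Timd4, Retnla and Lyve1 at Day 3, and Retnla at Day 7. Without a filter on low counts the calls of Folr2 at Day 1 (adjusted p = 0.11), F13a1 at Day 3 (0.06) and Day 7 (0.053), Cbr2 at Day 3 (0.09) and Lyve1 at Day 7 (0.057) were lost. In a bulk sample, fewer macrophages of the resident kind and less of these RNAs per cell cannot be told apart.

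**Figure D1:**
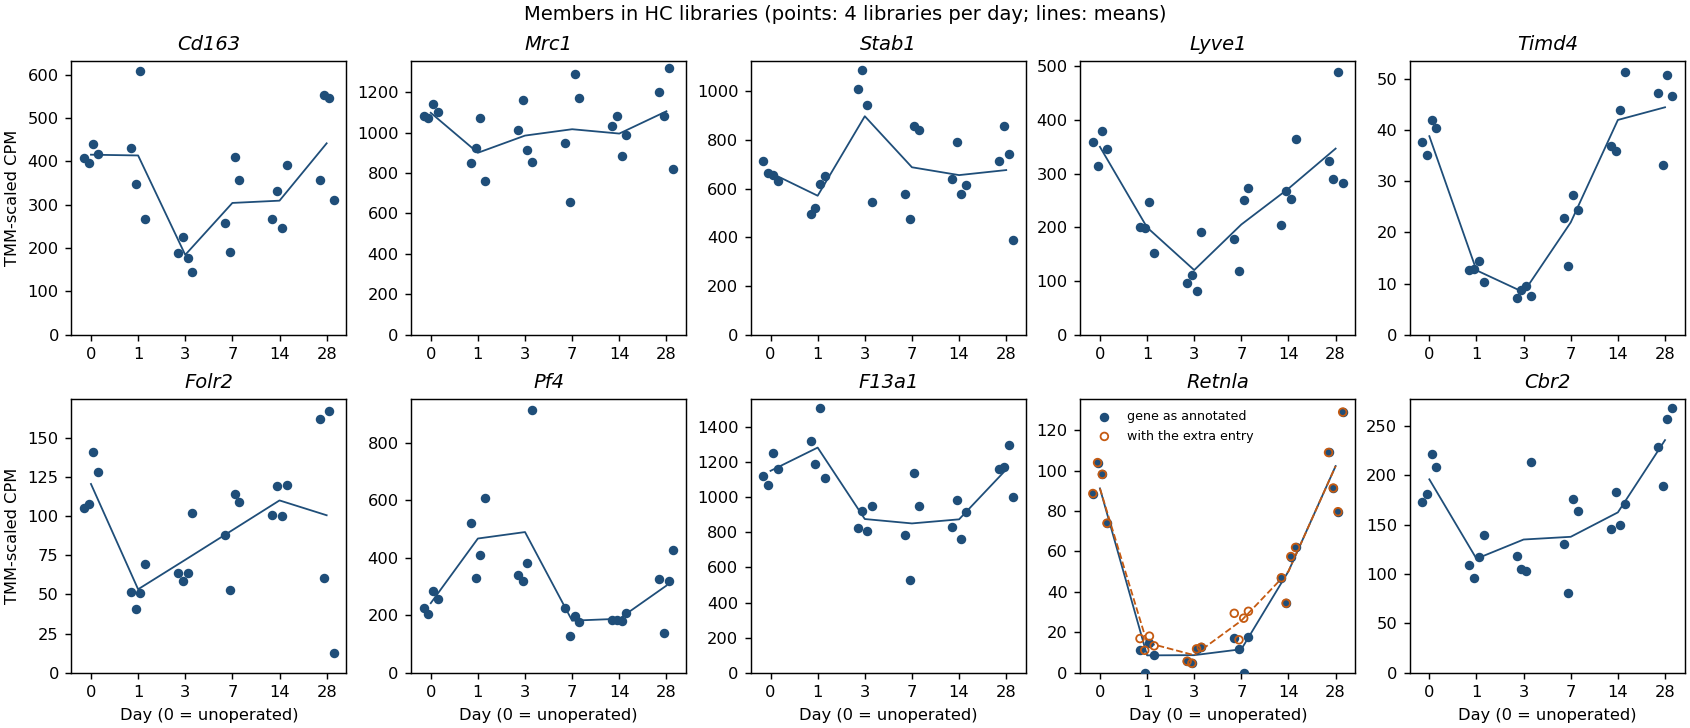
Level of each member (vertical axes, CPM from 0) in the HC libraries by day (horizontal axes), one panel per gene. Points are single libraries, lines join the means of 4, and open points of Retnla include its extra entry. Timd4 and Retnla drop at Day 1 below all Day 0 libraries, and at Day 28 their ranges overlap those of Day 0. Mrc1 stays near its Day 0 mean of 1100 CPM, and Pf4 has 1 library at 914 CPM at Day 3.

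Timd4 had the smallest adjusted p of the members at Day 1 and Day 3. It encodes a receptor for phosphatidylserine, the lipid that dying cells expose, and lies at chr11:46810800-46844332 on the plus strand. The Day 0 libraries held 37.7, 35.2, 41.9 and 40.5 CPM, those of Day 1 12.7, 12.8, 14.5 and 10.4 CPM, and those of Day 3 7.17, 8.83, 9.62 and 7.61 CPM. No library of Day 1 or Day 3 reached the lowest of Day 0. Timd4 was 3.27-fold lower at Day 1 (log2 fold change -1.71 ± 0.18, adjusted p = 1.1e-07) and 4.95-fold lower at Day 3 (-2.31 ± 0.18, 1.7e-09). Day 7, at 22.8, 13.4, 27.3 and 24.4 CPM, lay below all Day 0 libraries, with replicate 2 inside the Day 1 range, and was 1.82-fold lower than Day 0 (-0.87 ± 0.17, 0.00057), but -0.10 by limma on log2(TPM + 1) (0.77). At Day 14 (36.9, 35.9, 43.9 and 51.3 CPM) and Day 28 (47.3, 33.2, 50.7 and 46.7 CPM) the range of the libraries overlapped that of Day 0.

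Folr2 encodes a folate receptor of macrophages and lies at chr7:101839988-101857194 on the minus strand. It held 105, 108, 141 and 128 CPM at Day 0 and 51.8, 41.0, 50.8 and 69.5 CPM at Day 1, with no overlap. It was 2.4-fold lower at Day 1 (-1.26 ± 0.46, adjusted p = 0.03). This call was lost without HC Day 0 replicate 3 or 4 or HC Day 1 replicate 1, 2 or 3, with log2 fold changes of -1.24 to -1.14 and adjusted p of 0.056 to 0.079. At Day 3 the change was -0.82 ± 0.45 (0.15). The SE was set in part by Day 28, where the libraries held 162, 60.4, 167 and 12.7 CPM. The low values at Day 28 were in replicates 2 and 4, which are doubtful libraries, and there Gm10602, annotated on the other strand of Folr2, stood at up to 184 CPM, against 0.47 to 1.92 CPM in the other HC libraries. Without the doubtful libraries Folr2 passed at Day 3 too (-0.81, 0.0038), and summed with Gm10602 it also did (-0.82, 0.0057).

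The scavenger and endocytic receptors differed among themselves. Lyve1 went from 358, 315, 380 and 346 CPM at Day 0 to 201, 198, 247 and 153 CPM at Day 1 and 96.4, 111, 82.1 and 192 CPM at Day 3. All 8 later libraries lay below the lowest of Day 0. Lyve1 was 1.85-fold lower at Day 1 (-0.89 ± 0.27, adjusted p = 0.011) and 3.04-fold lower at Day 3 (-1.60 ± 0.27, 5e-05). Day 7 stood at 205 ± 70.5 CPM (-0.82 ± 0.27, 0.026), and this call was lost without HC Day 0 replicate 3 or HC Day 7 replicate 1 or 2 (-0.77 to -0.63, adjusted p 0.067 to 0.1).

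Cd163, the receptor for haptoglobin bound to hemoglobin (chr6:124304656-124330527, plus strand), did not fall at Day 1 but at Day 3. Its libraries held 408, 395, 440 and 418 CPM at Day 0 and 430, 348, 608 and 268 CPM at Day 1, which overlap (-0.09 ± 0.25, adjusted p = 0.8). At Day 3 they held 188, 226, 178 and 145 CPM, all below both earlier days. The fall was 2.4-fold against Day 0 (-1.26 ± 0.25, 0.00025). Against Day 1 it was -1.17 ± 0.25 (0.003), where 6.19% of all genes were lower and 5.88% higher.

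Mrc1 and Stab1 passed on no day. Mrc1, the mannose receptor gene (chr2:14229392-14332057, plus strand), held 1080, 1070, 1140 and 1100 CPM at Day 0, 848, 923, 1070 and 758 CPM at Day 1 and 1010, 1160, 914 and 855 CPM at Day 3. The days overlapped or nearly touched, with log2 fold changes of -0.37 ± 0.17 at Day 1 (adjusted p = 0.09) and -0.24 at Day 3 (0.26). Stab1 held 713, 663, 655 and 632 CPM at Day 0, 495, 520, 618 and 653 CPM at Day 1 and 1010, 1090, 946 and 547 CPM at Day 3. At Day 3, 3 of the 4 libraries lay above all others of these days, and the log2 fold change against Day 0 was 0.34 ± 0.22 (0.23). Between Day 1 and Day 3 its adjusted p was 0.065, and it passed without HC Day 3 replicate 4 (0.80, 0.018). Nt5dc2, annotated on the other strand of Stab1, stood at 86.8 and 141 CPM in HC Day 28 replicates 2 and 4, against 3.9 to 29.5 CPM in the other HC libraries.

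Among the secreted proteins and enzymes, Retnla had the largest fall. It encodes RELM alpha, a secreted protein of alternatively activated macrophages, at chr16:48842551-48844461 on the plus strand. The kinds of file did not count it alike. The transcript files of HC, those of Day 1 and Day 7, held a Retnla transcript of 598 bases and an entry 1 base longer, with no gene in the annotation used. The gene files listed a length for Retnla, the mean over its transcripts, of 598 bases in HC Day 3 replicates 1 and 2 and of 598.19 to 598.91 bases in the other HC gene files. A mean above 598 bases needs a longer transcript, so those gene files counted one under Retnla that the Retnla transcript of the transcript files leaves out. The extra entry had 371 reads in HC Day 1 replicate 2 and 1247 in HC Day 7 replicate 3, the 2 libraries with the Retnla transcript at 0. It had 3219 reads over the 8 HC transcript files and 0 over the 48 transcript files of CM and EC. Its reads were added to Retnla, a choice made after seeing the data. Whether its bases are those of Retnla was not tested.

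With the extra entry, Retnla held 88.7, 104, 98.2 and 74.0 CPM at Day 0, 16.9, 11.1, 18.1 and 13.3 CPM at Day 1, 5.68, 4.70, 11.8 and 12.6 CPM at Day 3 and 29.4, 16.3, 27.0 and 30.4 CPM at Day 7. No library of Day 1, Day 3 or Day 7 came near Day 0. The log2 fold changes against Day 0 were -2.71 at Day 1 (adjusted p = 2.7e-07), -3.46 at Day 3 (8.5e-09) and -1.87 at Day 7 (3.2e-05). Day 14 stood at 47.0, 34.4, 57.5 and 62.0 CPM, below Day 0 in every library (-0.85, 0.047), and Day 28 at 109, 91.4, 79.7 and 129 CPM, among or above the Day 0 values. Without the entry, Day 1 held 0 CPM in replicate 2 and 8.87 to 14.5 CPM in the other 3 and Day 7 held 17.0, 11.9, 0 and 17.6 CPM. The values were then -3.50 ± 0.91 at Day 1 (0.0036), -3.46 ± 0.90 at Day 3 (0.0033), -3.02 ± 0.89 at Day 7 (0.013) and -0.85 at Day 14 (0.63), of which those of Day 1 and Day 7 compare unlike counts.

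Cbr2, which encodes a carbonyl reductase (chr11:120729489-120732114, minus strand), held 173, 181, 222 and 208 CPM at Day 0 and 109, 96.1, 117 and 140 CPM at Day 1. These did not overlap, and Cbr2 was 1.79-fold lower (-0.84 ± 0.23, adjusted p = 0.0054). At Day 3 it held 118, 105, 103 and 214 CPM, with replicate 4 inside the Day 0 range (-0.60 ± 0.23, 0.036). That call was lost without HC Day 0 replicate 2, 3 or 4 or HC Day 3 replicate 1, 2 or 3 (-0.62 to -0.49, adjusted p 0.061 to 0.12). At Day 7 it passed without HC Day 7 replicate 3 alone (-0.70, 0.043).

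Pf4 was the member that rose. It encodes the chemokine platelet factor 4 and lies at chr5:90772435-90773383 on the plus strand. Its libraries held 226, 204, 283 and 256 CPM at Day 0, 522, 329, 409 and 610 CPM at Day 1 and 342, 321, 383 and 914 CPM at Day 3. All 8 lay above the highest of Day 0. Pf4 was 1.82-fold higher at Day 1 (0.87 ± 0.32, adjusted p = 0.033) and 1.94-fold higher at Day 3 (0.96 ± 0.32, 0.017). The Day 3 call was lost without HC Day 3 replicate 4 (0.42, 0.19), and the Day 1 call without HC Day 0 replicate 1, 2 or 4 or HC Day 1 replicate 1 or 4 (0.71 to 0.90, adjusted p 0.054 to 0.11). By Day 7 it held 225, 127, 197 and 176 CPM, below or among the Day 0 values.

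Platelet genes were measured beside Pf4. Of 9 platelet and megakaryocyte genes, 1 was higher at Day 1 (18% of all genes) and none lower (23.9%). That 1 was Ppbp, the neighbouring platelet chemokine gene, from 6.40 to 164 CPM (4.59 ± 0.40). The other 8 summed to 5.09 to 6.18 CPM at Day 0, 4.39 to 7.69 CPM at Day 1 and 4.57 to 6.04 CPM at Day 3. The part of platelets in the Pf4 values was not tested further.

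F13a1, the A subunit gene of coagulation factor XIII (chr13:36867178-37050244, minus strand), held 1120, 1070, 1250 and 1160 CPM at Day 0 and 1320, 1190, 1510 and 1110 CPM at Day 1, which overlap (0.07 ± 0.17, adjusted p = 0.77). At Day 3 it held 826, 924, 805 and 947 CPM, below all Day 0 libraries (-0.48 ± 0.17, 0.024). This call was lost without HC Day 0 replicate 3 or HC Day 3 replicate 1 or 3 (-0.44 to -0.41, adjusted p 0.065 to 0.08). The Day 7 call (-0.49 ± 0.17, 0.034) was lost without any 1 of the Day 0 libraries or without HC Day 7 replicate 1 or 2 (-0.51 to -0.32, adjusted p 0.05 to 0.12).

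**Figure D2:**
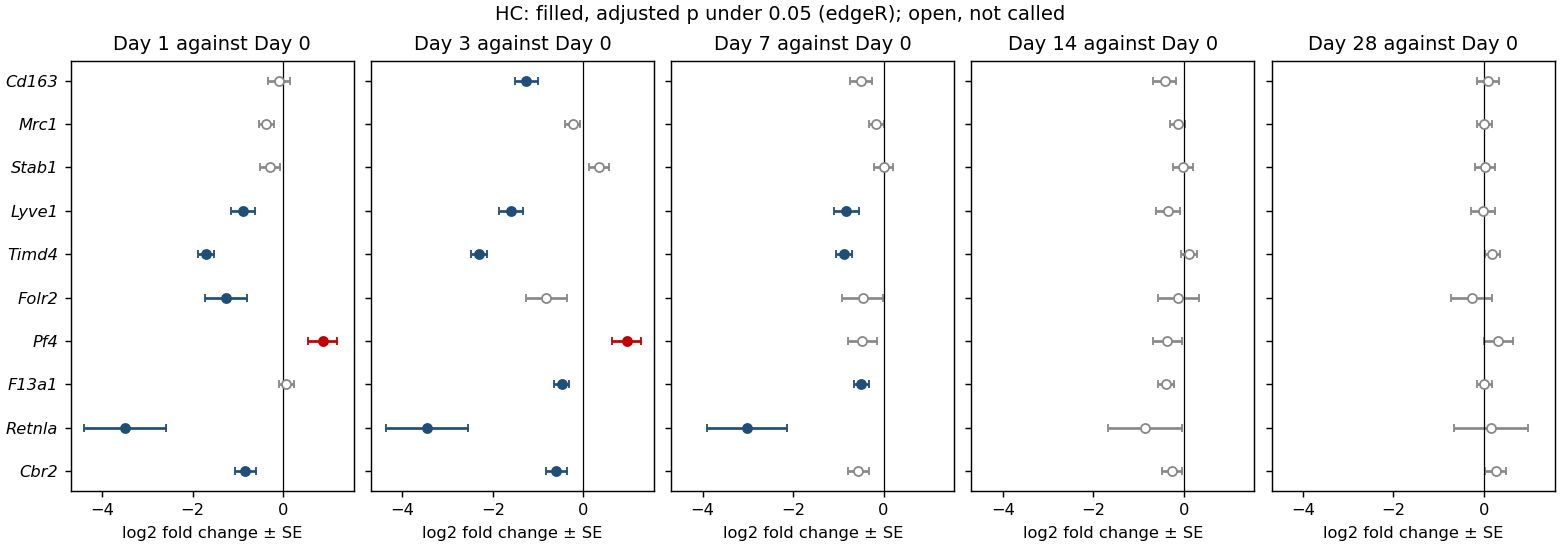
Log2 fold change against Day 0 (horizontal axes) of the 10 members (vertical axis) in HC, one panel per later day, with bars of 1 SE. Filled points passed the test. Timd4 and Retnla lie lowest at Day 3 (-2.31 and -3.46), Pf4 lies above 0 at Day 1 and Day 3 (0.87 and 0.96), and no point is filled at Day 14 or Day 28. Retnla is shown without its extra entry.

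From Day 1 to Day 3, Timd4 (-0.60, adjusted p = 0.027), F13a1 (-0.55, 0.036) and Cd163 were lower (6.19% of all genes, 5.88% higher). Timd4 lost this call without HC Day 1 replicate 1, 2 or 3 or Day 3 replicate 1 or 4 (0.059 to 0.097). F13a1 lost it without HC Day 1 replicate 1, 2 or 3 or Day 3 replicate 1, 2 or 3 (0.056 to 0.13). Lyve1 passed without HC Day 3 replicate 4 (-1.07, 0.0066). The return of the members was spread over the later days. From Day 3 to Day 7, Timd4 (1.44 ± 0.18, adjusted p = 1.7e-05), Lyve1 (0.79 ± 0.27, 0.045) and Cd163 (0.76 ± 0.25, 0.035) were higher, where 11% of all genes were. Pf4 was lower (-1.42 ± 0.32, 0.0038; 8.85% of all genes). The rise of Lyve1 was lost without any 1 of HC Day 3 replicates 1, 2 and 3 or HC Day 7 replicates 1, 3 and 4 (0.60 to 0.85, adjusted p 0.057 to 0.16). That of Cd163 was lost without HC Day 3 replicate 1, 3 or 4 or HC Day 7 replicate 3 or 4 (0.58 to 0.76, 0.062 to 0.13). From Day 7 to Day 14 Timd4 alone was higher (0.99 ± 0.17, 0.0031), where 2.9% of all genes were higher and 0.487% lower. With its extra entry, Retnla also rose from Day 3 to Day 7 (1.59, 0.00065), and its adjusted p from Day 7 to Day 14 was 0.048. No member differed between Day 14 and Day 28, where 2.98% of all genes did.

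Other myeloid genes moved in the same HC libraries. The 12 pan-macrophage genes, which macrophages of any origin carry, summed to 2280 to 2880 CPM at Day 0, 2870 to 4280 CPM at Day 1 and 5060 to 7230 CPM at Day 3. At Day 1, 5 of the 12 were higher (18% of all genes) and 2 lower (23.9%), and at Day 3 8 were higher (23.3%) and none lower (23.1%). At Day 1 the high affinity Fc receptor gene Fcgr1 rose from 32.9 to 80.8 CPM (1.22 ± 0.18), the protease gene Lgmn from 167 to 406 CPM (1.20) and the perforin-like gene Mpeg1 from 236 to 542 CPM (1.12). All 9 monocyte genes were higher at Day 1, their sum going from 126 to 167 CPM to 1660 to 1740 CPM. Of 12 neutrophil genes 9 were higher and none lower, with a sum of 115 to 202 CPM at Day 0 and 1510 to 2660 CPM at Day 1. The summed members meanwhile stood at 4150 to 4650 CPM at Day 0, 3660 to 4650 CPM at Day 1 and 3500 to 4010 CPM at Day 3, a sum led by Mrc1, F13a1 and Stab1.

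The 20 resident macrophage genes outside the members had 10 lower (23.9% of all genes) and 2 higher (18%) at Day 1, with a median log2 fold change of -0.72. The largest falls at 10 CPM or more were those of Fxyd2, a regulator gene of the sodium pump (19.8 ± 2.63 to 4.73 ± 0.735 CPM, -2.15 ± 0.28, adjusted p = 2e-06), of the lectin gene Mgl2 (129 ± 3.16 to 40.0 ± 5.15 CPM, -1.77 ± 0.17, 4.7e-08) and of the lipid transfer gene Pltp (163 to 59.5 CPM, -1.53 ± 0.31, 0.00034). At Day 3, 7 of the 20 were lower and 3 higher (median -0.40), then 4 lower and 3 higher at Day 7, 1 lower and 3 higher at Day 14, and none lower and 9 higher at Day 28 (median 0.47). Without the doubtful libraries, 2 of which are HC of Day 28, 3 were higher at Day 28 (median 0.40). Over all genes and with all libraries, 23.1% were lower and 23.3% higher at Day 3, and 14% and 14.1% at Day 7. In either direction, 12.9% differed at Day 14 and 21.8% at Day 28. Of 7 genes of alternative activation, the state that Retnla is known to mark, 6 were higher at Day 1 and 1 lower. Arg1, the arginase gene, went from 0.644 to 1130 CPM (10.67 ± 0.72), and Il4ra, the interleukin 4 receptor gene, from 55.9 to 255 CPM (2.11 ± 0.17).

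Genes of other tissues in the HC libraries fell too. All 4 EC markers and all 4 CM markers were lower at Day 1 (23.9% of all genes) and at Day 3 (23.1%), and so were all 4 FB markers. The lymphatic endothelial genes without Pdpn, which share Lyve1 with macrophages, summed to 28.5 to 40.2 CPM at Day 0, 8.42 to 11.3 CPM at Day 1 and 4.65 to 6.28 CPM at Day 3. The part of endothelial RNA in the Lyve1 and Stab1 values of HC was not tested. Timd4, Folr2 and Retnla stood at 0 to 0.161 CPM in every EC library of Day 0.

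The members were then measured against the 12 pan-macrophage genes instead of the whole library. With the reads of these 12 genes as library size, all genes shifted by a median of -0.35 at Day 1, -1.08 at Day 3, -0.71 at Day 7, -0.48 at Day 14 and -0.46 at Day 28. At Day 3, 9 of 10 members were lower on this scale, but so were 73% of all genes (3.31% higher), and the median of the members was -1.83. At Day 1, 6 were lower (30% of all genes) and Pf4 was higher (9.58%), at Day 7 all 10 were lower, Retnla without its extra entry (57.9%, 2.72% higher), at Day 14, 5 (31%, 2.37% higher), and at Day 28 none (35.6% of all genes lower, 3.64% higher).

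Timd4 had the deepest fall on this scale after Retnla. It made 1.53 ± 0.0678 reads per 100 pan-macrophage reads at Day 0, 0.405 at Day 1, 0.15 ± 0.0377 at Day 3, 0.503 at Day 7, 1.21 at Day 14 and 1.23 at Day 28. At Day 3 its log2 fold change was -3.36 ± 0.24 (adjusted p = 1.9e-10), that of Retnla -4.59, of Lyve1 -2.75, of Cd163 -2.29, of Folr2 -1.92, of Cbr2 -1.74, of F13a1 -1.55, of Mrc1 -1.29 and of Stab1 -0.68. Mrc1, which did not pass per whole library, went from 43.5 ± 3.8 to 17.7 ± 4.57 reads per 100 pan-macrophage reads at Day 3 and was at 31.1 at Day 28. Pf4 kept near its share, with 9.49 at Day 0 and 8.18 at Day 3 (-0.21, 0.4), and it passed as lower without HC Day 3 replicate 4 (-0.50, 0.042). The Day 1 calls of Pf4 (0.60 ± 0.23, 0.044) and Mrc1 (-0.59, 0.05) were each lost in 7 of the 8 fits without 1 library of Day 0 or Day 1, Pf4 in all but that without HC Day 1 replicate 2 (0.49 to 0.62, adjusted p 0.067 to 0.14) and Mrc1 in all but that without HC Day 1 replicate 3 (-0.64 to -0.41, 0.058 to 0.18). With the 3 C1q genes left out of the reference list, Pf4 at Day 1 was at 0.15 (0.61). Stab1 lost its Day 3 call without HC Day 0 replicate 1 or 2 or HC Day 3 replicate 4 (-0.63 to -0.44, 0.071 to 0.12), and its Day 7 call without HC Day 0 replicate 1 or 2 or HC Day 7 replicate 1 or 2 (-0.71 to -0.63, 0.059 to 0.076). Folr2 lost its Day 7 call without HC Day 7 replicate 2 (-1.01, 0.07). At Day 14 Lyve1 was lost without HC Day 0 replicate 1 or HC Day 14 replicate 1 or 2 (-0.78 to -0.69, 0.053 to 0.073) and Cd163 without HC Day 0 replicate 1, 2 or 4 or HC Day 14 replicate 1, 2 or 3 (-0.91 to -0.80, 0.05 to 0.088), and at Day 28 F13a1 passed without HC Day 28 replicate 2 (-0.57, 0.048).

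**Figure D3:**
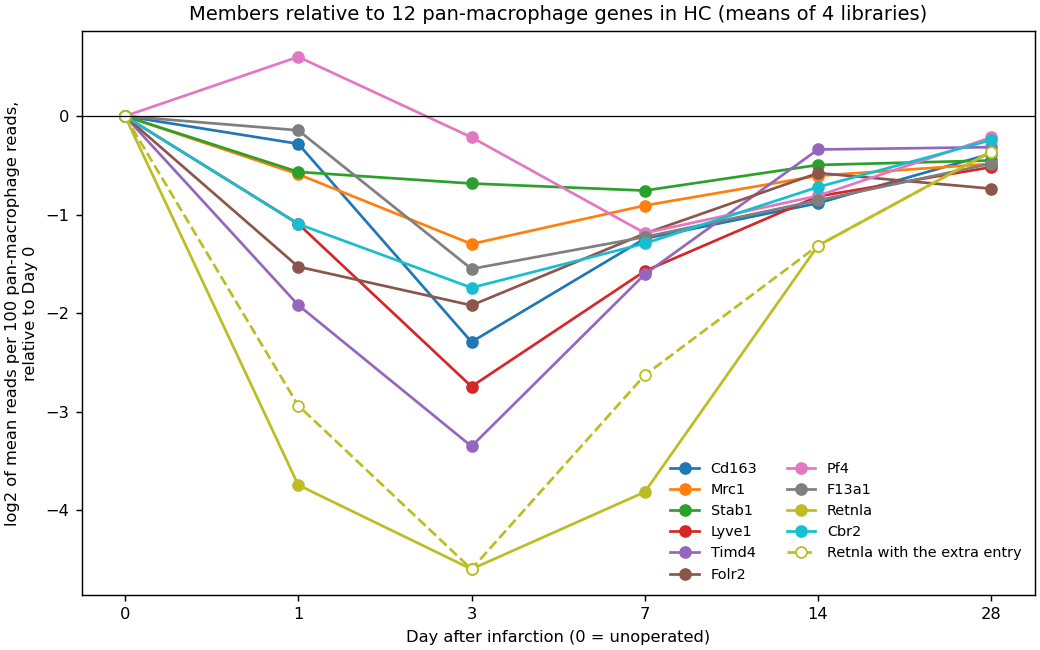
Log2 of the mean reads of each member per 100 pan-macrophage reads in HC, relative to Day 0 (vertical axis), by day (horizontal axis). Each line is a member and joins means of 4 libraries, and the dashed line adds the extra entry to Retnla. Retnla and Timd4 lie lowest at Day 3, Pf4 stays closest to 0 at Day 3, and all lines lie below 0 at Day 7.

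In CM every member that changed was higher. CM are the muscle cells of the heart wall, and at Day 0 the 10 genes summed to 12.3 to 18.4 CPM. The filter on low values was passed by 8 members, and Timd4 and Retnla did not pass it. Of the 8, 5 were higher at Day 1 (6.8% of all 14535 genes), 8 at Day 3 (16%), 5 at Day 7 (8.92%), 4 at Day 14 (8.05%) and none at Day 28 (2.49%), and none was lower on any day (4.58%, 14.6%, 4.33%, 5.71% and 1.09% of all genes, by day). The median log2 fold change of the 8 was 3.08 at Day 3.

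Pf4 had the largest rise in CM. Its libraries held 0.897, 0.248, 0.881 and 1.18 CPM at Day 0, 7.37, 4.55, 6.57 and 12.6 CPM at Day 1 and 16.9, 33.1, 25.6 and 26.3 CPM at Day 3, and Day 7 was back at 1.81 to 3.18 CPM. No library of Day 1 or Day 3 overlapped Day 0. The log2 fold change was 3.27 at Day 1 and 4.92 ± 0.40 at Day 3 (adjusted p = 3.2e-09). Mrc1 rose from 2.35, 2.72, 2.77 and 0.925 CPM to 19.7, 32.7, 20.1 and 17.5 CPM at Day 3 (3.30 ± 0.32, 3.9e-08). The other rises at Day 3 were 3.24 for Folr2, 3.13 for F13a1, 3.04 for Cbr2, 1.97 for Cd163, 1.72 for Lyve1 and 1.72 for Stab1. The CM level of a member at Day 3 was 1.43% (Cd163) to 5.20% (Pf4) of its HC level among these 8.

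Leukocyte markers moved with the members in CM. The 4 HC markers summed to 0.672 to 2.01 CPM at Day 0, 4.6 to 11.2 CPM at Day 1, 19.0 to 26.3 CPM at Day 3, 7.09 to 11.1 CPM at Day 7, 2.96 to 6.57 CPM at Day 14 and 1.77 to 3.95 CPM at Day 28. The 12 pan-macrophage genes summed to 42.1 to 50.8 CPM at Day 0 and 201 to 305 CPM at Day 3. The part of leukocyte RNA in the CM values was not tested. Of the 22 calls in CM, 5, all at Day 7 or Day 14, were lost in some fit without 1 library. Pf4 at Day 7 (1.51 ± 0.45) was lost without CM Day 0 replicate 2 or CM Day 7 replicate 3 or 4 (1.17 to 1.54, adjusted p 0.053 to 0.12), and Cd163 at Day 7 without CM Day 0 replicate 4 (1.41, 0.058). At Day 14 Pf4 was lost without CM Day 0 replicate 1, 2 or 3 or CM Day 14 replicate 1 or 2 (1.05 to 1.47, 0.063 to 0.14), F13a1 without CM Day 0 replicate 1 or 2 or CM Day 14 replicate 2 (0.75 to 0.90, 0.052 to 0.12), and Mrc1 without CM Day 0 replicate 4 or CM Day 14 replicate 2 (adjusted p 0.08 and 0.086). Stab1, not called at Day 7 or Day 14, passed without CM Day 0 replicate 2 (1.11, 0.035, and 1.14, 0.028) and in the fit with replicate blocks (0.75, 0.045, and 0.78, 0.035), and Mrc1 passed at Day 28 without CM Day 28 replicate 2 (1.26, 0.035).

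In EC, Lyve1, Stab1 and Mrc1 were higher after infarction. The filter was passed by 7 members there, and not by Folr2, Timd4 and Retnla. Of the 7, 1 was higher at Day 1 (9.86% of all 18144 genes), 3 at Day 3 (23.2%), 3 at Day 7 (18%), 5 at Day 14 (12.8%) and 4 at Day 28 (16.3%), and none was lower (9.11%, 22.3%, 19.6%, 14.3% and 17.4% of all genes, by day).

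Lyve1 was higher in EC on every day. It held 11.9 to 13.9 CPM at Day 0, 23.9, 28.6, 30.8 and 31.2 CPM at Day 1, 23.0, 30.3, 19.1 and 33.6 CPM at Day 3 and 37.0, 30.2, 35.4 and 26.8 CPM at Day 7. All 12 lay above Day 0, with log2 fold changes of 1.11 ± 0.18 (adjusted p = 0.00022), 1.04 (9.7e-05) and 1.30 (1.5e-05). At Day 14 and Day 28 the changes were 0.70 (0.0079) and 0.89 (0.00076), and without the doubtful libraries the first was 0.76 (0.055). EC held 22.0% of the Lyve1 level of HC at Day 3, against 3.67% at Day 0.

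Mrc1 went from 2.22, 1.99, 1.91 and 2.50 CPM at Day 0 to 8.70, 5.28, 4.67 and 8.07 CPM at Day 3 and 14.7, 16.8, 14.9 and 11.5 CPM at Day 7 in EC. The groups did not overlap, and the log2 fold change was 1.62 ± 0.22 at Day 3 (adjusted p = 5.3e-06, but 0.26 and 0.23 by limma on log2(TPM + 1)) and 2.72 ± 0.23 at Day 7 (1.8e-08). Its mean TPM was 0.0711 at Day 0 and 0.283 at Day 3, both small beside the 1 that is added before the log. Stab1 went from 43.7, 40.9, 64.0 and 65.0 CPM to 101, 127, 95.7 and 93.7 CPM at Day 7, again without overlap (0.95, 0.00039). The 2 low values of Day 0 were those of the doubtful libraries. Without the doubtful libraries Stab1 lost its calls at Day 3 (0.57, 0.053), Day 14 (0.084) and Day 28 (0.094). F13a1 lost its calls without them at Day 14 (0.13) and Day 28 (0.096), and Day 28 held 1 library at 7.40 CPM, EC Day 28 replicate 3. Its Day 14 call was also lost without any 1 of the 4 Day 0 libraries or EC Day 14 replicate 2 or 4 (0.55 to 1.25, 0.058 to 0.3). Cbr2 at Day 14 (1.99 ± 0.67) was lost without EC Day 0 replicate 2, 3 or 4 or EC Day 14 replicate 2 or 4 (1.30 to 2.04, 0.053 to 0.17).

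Leukocyte genes and lymphatic genes were measured beside the members in EC. The 4 HC markers summed to 1.77 to 2.25 CPM at Day 0, 1.48 to 4.32 CPM at Day 7 and 3.49 to 7.92 CPM at Day 28. The monocyte genes summed to 20.4 to 29.7 CPM at Day 0 and 110 to 203 CPM at Day 7. The pan-macrophage genes summed to 43.2 to 51.1 CPM at Day 0 and 57.0 to 68.7 CPM at Day 7. The lymphatic endothelial genes without Pdpn summed to 73.6 to 96.5 CPM at Day 0, 111 to 150 CPM at Day 3 and 177 to 243 CPM at Day 7, and 5 of the 6 lymphatic genes that were tested had 2, 4, 5, 4 and 4 higher on the days in order. Over all genes 9.86%, 23.2%, 18%, 12.8% and 16.3% were higher in EC on these days. At Day 7 Mmrn1, a multimerin gene of lymphatic vessels, rose by 2.46 and Reln, the reelin gene, by 2.40 on the log2 scale. The parts of lymphatic cells and of leukocyte RNA in the Lyve1, Mrc1 and Stab1 values of EC were not tested.

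FB carried few reads of the members, which summed to a mean of 13.4 CPM at Day 0 and 34.6 CPM at Day 14. The filter was passed by 5, and not by Folr2, Timd4, Cd163, Cbr2 and Retnla. Of the 5, 2 were higher at Day 1 (11.6% of all 18658 genes), 2 at Day 3 (25.8%), 3 at Day 7 (9.83%), 2 at Day 14 (8.25%) and none at Day 28 (2.88%), and none was lower (6.36%, 23.3%, 4.51%, 2.62% and 0.606% of all genes, by day). Pf4 went from 1.14, 0.715, 0.978 and 1.16 CPM at Day 0 to 8.70, 4.58, 5.23 and 4.65 CPM at Day 1, with no overlap (2.57 ± 0.38, adjusted p = 5.5e-05), and Lyve1 from 3.40, 3.10, 1.75 and 2.30 CPM to 5.04, 5.65, 6.26 and 5.95 CPM (1.17 ± 0.24, 0.0014). Mrc1 rose from 0.408 to 0.534 CPM at Day 0 to 0.875, 1.84, 6.38 and 0.986 CPM at Day 3 (2.46 ± 0.50, 0.00042), with its highest value in replicate 3, a doubtful library. FB Day 3 replicates 2 and 3, both doubtful, had only 2664338 and 3508819 reads, with 35.6% and 35.18% in rRNA genes. Mrc1 had as few as 5 reads in a library of FB Day 3. Pf4 was also called at Day 3 (1.72 ± 0.40, 0.0012), but by limma on log2(TPM + 1) it was at -0.14 (0.69).

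Stab1 was the late gene of FB. It held 8.15, 10.9, 6.48 and 8.27 CPM at Day 0 and 39.9, 11.7, 27.6 and 27.8 CPM at Day 14, all above Day 0 (1.70 ± 0.28, adjusted p = 0.00021, but 0.2 by limma on log2(TPM + 1)). Its Day 7 rise (0.94, 0.023) was lost without FB Day 0 replicate 1, 3 or 4 or FB Day 7 replicate 1 or 4 (0.76 to 0.93, 0.059 to 0.12). That of Lyve1 at Day 7 (0.73, 0.044) was lost without FB Day 0 replicate 2, 3 or 4 or FB Day 7 replicate 2, 3 or 4 (0.58 to 0.80, 0.059 to 0.17), and its Day 14 rise (0.92, 0.012) without FB Day 0 replicate 3 or 4 or FB Day 14 replicate 1 (0.77 to 0.87, 0.051 to 0.066). The 4 HC markers summed to 1.17 to 1.52 CPM in FB at Day 0, 0.979 to 1.6 CPM at Day 1 and 1.37 to 2.35 CPM at Day 14. The lymphatic genes without Pdpn went from 12.6 to 16.4 CPM at Day 0 to 25.8 to 41.7 CPM at Day 14. Their part in the FB values was not tested. Relative to the pan-macrophage genes, Pf4 was higher in FB at Day 1 (2.12 ± 0.41, adjusted p = 0.0016; 2.77% of all genes higher), Mrc1 and Pf4 at Day 3 (1.43 and 0.97; 8.44%), Mrc1 at Day 7 (1.44; 4.91%), Stab1 at Day 14 (1.33; 3.73%) and none at Day 28 (1.39%). Of these, the Day 1 call alone held without any 1 library. That of Mrc1 at Day 3 was lost without FB Day 3 replicate 3 (0.63, 0.099), and the others without up to 6 different libraries (adjusted p 0.051 to 0.17).

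**Figure D4:**
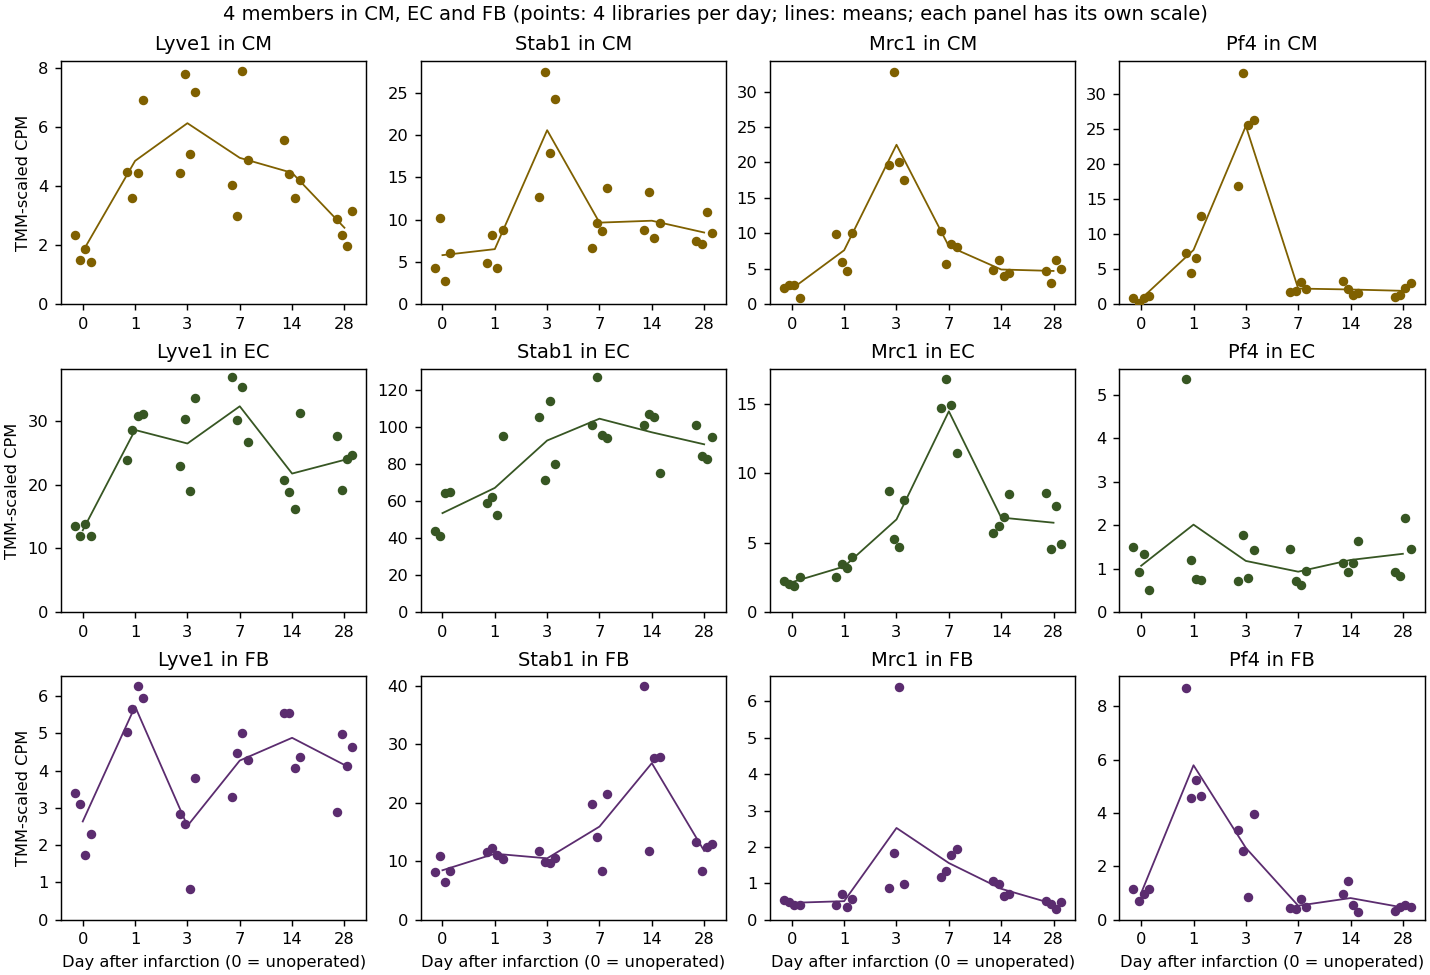
Levels (vertical axes, CPM from 0, each panel on its own scale) of Lyve1, Stab1, Mrc1 and Pf4 in CM, EC and FB libraries by day (horizontal axes). Points are single libraries and lines join the means of 4. Pf4 and Mrc1 in CM peak at Day 3, Mrc1 in EC peaks at Day 7 with 11.5 to 16.8 CPM, and Stab1 in FB is highest at Day 14.

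The difference between cell types was tested itself, as the change from Day 0 in HC minus the change in another cell type. At Day 1 the change was lower in HC for 5 members against CM (10.8% of all 20445 genes), 2 against EC (11%) and 1 against FB (10.9%). At Day 3 it was lower for the 8 that passed the filter in CM (17%), 2 against EC (15.3%) and 2 against FB (17.6%). Timd4, with 0 to 1 reads per CM library at Day 0 and 2 to 4 at Day 3, entered this fit through HC and is not counted. In the fit with replicate blocks, Pf4 also passed against FB at Day 1 (-1.67, adjusted p = 0.037). The filter was passed by 8 members in CM, 7 in EC and 5 in FB, and the others entered these comparisons through HC. Of those that passed it in the other cell type, none changed more upward in HC in any of the 6 comparisons. Over all genes 8.46%, 7.92% and 7.82% did at Day 1 and 10.6%, 8.79% and 16.2% at Day 3. Lyve1 passed in all 6, with differences of -3.26 to -1.74 on the log2 scale. These 6 comparisons share the HC libraries.

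Within HC the members were also compared by their course over the 24 libraries, as Pearson correlations of log2(CPM + 1) given as a description. The points share their library, its depth and the day. Timd4 and Retnla with its extra entry went together most closely (r = 0.93), followed by Lyve1 with Timd4 and with Retnla so counted (0.84 each), Cd163 with F13a1 and Lyve1 with Cbr2 (0.77 each), and Lyve1 with Cd163 and Cbr2 with Retnla so counted (0.76 each). The lowest was Timd4 with Pf4 (-0.51).

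Among 7932 genes of at least 10 CPM, the courses most like that of Timd4 were those of Ltbp4 (r = 0.97), a binding protein gene for latent TGF beta, Cp (0.96), the ceruloplasmin gene, and Rasgrp3, Cd81 and Il1rl1 (0.95 each). Lyve1 was nearest to Colec12 (0.93), a scavenger receptor gene, then Evi5 (0.91), Rhoj and Sult1a1 (0.90 each) and Epn2 (0.89). Folr2 was nearest to Selenop (0.90), the selenoprotein P gene, Cbr2 to Pepd (0.93), Cd163 to Alox5 and Tmcc1 (0.87 each), Mrc1 to Itsn1 (0.88), Stab1 to Man1c1 (0.90) and F13a1 to Sema4a (0.81). Genes close to Pf4 included Mt1, a metallothionein gene, and Irf2 (0.90 each). Retnla with its extra entry was nearest to Ephx1 and Fxyd2 (0.95 each), then Rhoj and Mgl2 (0.94 each). The mean of the members was nearest to Colec12 (0.90) and Evi5 (0.87).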

How the data were processed

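Total RNA-seq of 4 cell types on 6 days was used (96 libraries). Per the labels and methods, the authors used Trim Galore, STAR 2.28 (mm10, annotation GRCm38.87) and Salmon for trimming, alignment and quantification. The deposited files hold an estimated count per entry and a TPM value (per length, scaled to a fixed total by the authors), for transcripts in 56 files and genes in 40. Transcript values were summed per gene with a GRCm38 annotation. Entries without a gene (up to 0.363% of reads) were left out.

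The test on rounded estimated counts was that of edgeR 4.0.16, run in R 4.3.3 (robust quasi-likelihood, TMM scaling, filterByExpr). The 24 libraries of a cell type made 1 fit, the 16 of Day 0 a fit for pairs of cell types, and the 48 of Day 0, Day 1 and Day 3 a fit for differences of change. Calls were made at an adjusted p under 0.05 (Benjamini-Hochberg, all genes of a comparison). An SE is a log2 fold change over the square root of its F. Scripts were tested on simulated data. The methods state that the pools of a day came from the same animals in all cell types, but not which replicate numbers match. Alternatives were RLE scaling, DESeq2 1.42.0, limma 3.58.1 on log2(TPM + 1), no filter, no rRNA genes, a replicate block, 2 groups alone and leaving out libraries. The members and the 14 other gene lists were chosen with earlier results of these data known, so no count over a list is independent support. Named genes were all members and, per list, up to 3 called genes with the largest change in HC at Day 1 at 10 CPM or more, up to 2 elsewhere beside a member, and the 5 genes nearest in course, of which a gene near Pf4 is not reported here.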

Additional observations from a re-analysis of the deposited data

Results flagged for a closer look

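The change of a member after infarction differed between HC and another cell type in 21 cases, each lower in HC (edgeR, test of the difference of the changes). Against CM at Day 1 the log2 differences were -2.23 for Lyve1 (adjusted p = 2.5e-05), -2.03 for Cd163 (0.0079), -2.06 for Mrc1 (0.00096), -1.90 for F13a1 (4.6e-05) and -2.31 for Pf4 (0.019). Against EC at Day 1 they were -1.95 for Lyve1 (1.7e-05) and -1.47 for Cbr2 (0.042), and against FB at Day 1 -1.97 for Lyve1 (1.4e-05). Against CM at Day 3 they were -4.03 for Folr2 (3.1e-06), -3.26 for Lyve1 (3.6e-09), -3.17 for Cd163 (1.7e-05), -3.47 for Mrc1 (6.5e-08), -3.53 for F13a1 (4.7e-11), -3.59 for Cbr2 (9e-07), -3.91 for Pf4 (2.8e-05) and -1.30 for Stab1 (0.0041). Timd4 stood at -4.49 (0.00029) there, but it had 0 to 1 reads per CM library at Day 0 and 2 to 4 at Day 3, did not pass the filter in CM and was tested because of its level in HC. Against EC at Day 3 they were -2.63 for Lyve1 (2.2e-08) and -1.85 for Mrc1 (0.00081), and against FB at Day 3 -1.74 for Lyve1 (0.00012) and -2.16 for Mrc1 (0.00087). With a replicate number left out of all groups, calls were lost at Day 1 for Cd163 against CM (number 1, -1.66, or 4, -1.45), Pf4 against CM (2, -2.11, or 3, -2.30) and Cbr2 against EC (any of the 4, adjusted p 0.05 to 0.36), and at Day 3 for Stab1 against CM (4, -1.07). HC markers rose in CM over the same days, and their part in these differences was not tested.

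A library stood far from the other 3 of its group in 10 of 178 groups tested (Dixon's test), and chance alone marks about 1 group in 20. HC Day 3 replicate 4 was high for Folr2 (102 CPM against a median of 63.8 in the others), Cbr2 (214 against 105) and Pf4 (914 against 342), while for Stab1 and Cd163 it was the lowest of its day. It also stood apart over all genes. A chi-square per gene between 2 libraries was 272 to 380 for it against the others of its day. Among those others it was 23.9 to 45.1. This library is not a doubtful one, and the HC Day 3 means include it. EC Day 28 replicate 3, a doubtful library, was high for F13a1 (7.40 against 2.33) and Cbr2 (1.43 against 0.247). The others were Mrc1 in CM Day 3 replicate 2 (32.7 against 19.7), Pf4 in EC Day 1 replicate 1 (5.36 against 0.765), FB Day 1 replicate 1 (8.70 against 4.65) and HC Day 14 replicate 4 (209 against 182), and Stab1 in FB Day 28 replicate 2, which was low (8.33 against 12.9).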

How the results depend on the processing

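Of the tests of members against Day 0, 17 were called in HC, 22 in CM, 16 in EC and 9 in FB. By limma on log2(TPM + 1) these were 6, 5, 10 and 2, the HC calls between successive days went from 8 to 1 and the differences of change from 21 to 33. But limma tested all 17 of the HC calls, only 5 of the 22 in CM, 13 of the 16 in EC and 4 of the 9 in FB. Of the calls it tested, 2 were lost in CM, 4 in EC and 2 in FB, and it gained 2 in CM and 1 in EC. In FB 2 values also turned in direction, as given below. The other calls in CM, EC and FB were left untested by it. With only the 2 groups compared in the fit, FB had 14 calls and HC between successive days 5. RLE scaling and DESeq2 each gave 17 in HC and no filter gave 12. Without 1 library the calls ranged from 12 to 18 in HC, 19 to 23 in CM, 14 to 16 in EC, 6 to 9 in FB, 4 to 8 between successive HC days, 44 to 47 for pairs of cell types at Day 0 (46 with all libraries), 19 to 20 for differences of change (without 1 replicate number), 25 to 32 relative to pan-macrophage genes in HC (31) and 2 to 5 in FB (5). By limma, which tested genes of at least 1 TPM in at least 3 libraries, 13 values called in either test turned in direction: in FB at Day 3 Pf4 (-0.14) and Stab1 (-1.57), the differences for Folr2 at Day 1 against FB (-1.53), Retnla at Day 3 against EC (-3.28) and Stab1 at Day 3 against FB (2.20), at Day 0 FB against EC F13a1 (0.00) and Pf4 (0.72), FB against CM Folr2 (0.00), Cd163 (0.00), Mrc1 (0.03), F13a1 (0.09) and Cbr2 (0.01), and EC against CM F13a1 (0.08). At Day 0 Folr2, Cd163, Mrc1, F13a1 and Cbr2 had mean TPM of 0.0045 to 0.115 in CM, EC and FB, so their log2(TPM + 1) values lay near 0 there. The cause of the turns was not tested. All correlations of same-numbered libraries were over 0.1 in 2 of 20 pairs of days, CM Day 1 and CM Day 3 against Day 0 (0.28 to 0.45 and 0.24 to 0.48), where the replicate block changed no call, and in 0 of 36 pairs of cell types. With the replicate block the calls were 18 in HC (Cbr2 at Day 7 gained, -0.58, adjusted p = 0.023), 24 in CM (Stab1 at Day 7 and Day 14 gained), 14 in EC (F13a1 and Cbr2 at Day 14 lost), 8 in FB (Lyve1 at Day 7 lost), 8 between successive HC days, 45 for pairs, 22 for differences, and 34 in HC and 4 in FB relative to pan-macrophage genes. In FB and EC the members of few reads, such as Cbr2 and Folr2, limit what could be detected.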

Other observations

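Relatives of the members were measured in the same HC libraries. Of 12 relatives by sequence family, 7 could be tested at Day 1, and by edgeR 3 were higher (18% of all genes) and 1 lower (23.9%). Retnlg, a relative of Retnla that neutrophils carry, rose from 6.71 to 74.2 CPM (3.38 ± 0.41) and Havcr2, a relative of Timd4, from 7.21 to 28.1 CPM (1.88 ± 0.11), and Ppbp, a relative of Pf4, was the third. Mrc2, a relative of Mrc1, fell from 5.05 to 2.74 CPM (-0.97 ± 0.23). Neutrophil and monocyte genes rose in the same libraries, and their part in these values was not tested.

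Of the lymphocyte genes in HC at Day 1, 2 of 6 B lymphocyte genes (median log2 fold change -1.11) and 2 of 8 T and natural killer cell genes (-1.09) were lower and none higher. Over all genes 23.9% were lower and 18% higher, so these counts of lower genes lay near the general share. At Day 7 the T and natural killer cell genes summed to 28.4 to 301 CPM, against 16.5 to 29.4 CPM at Day 0.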
